A study of Homo sapiens with 6 samples.

Results

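The anaphase-promoting complex (APC/C) is the ubiquitin ligase that marks cyclin B1 for destruction, and 10 genes of this machinery were followed at the transcript level. They were taken by symbol: the coactivators CDC20 and FZR1, the core subunits ANAPC1, ANAPC2, ANAPC10, ANAPC11 and CDC27, the ubiquitin-conjugating enzymes UBE2C and UBE2S, and the inhibitor FBXO5. All 10 were found among the 58336 genes of the tables. RNA sequencing covered 3 libraries of H1299, a human lung carcinoma line, in which a PLVT7 vector expressed a short hairpin against CCNB1 (the cyclin B1 gene), and 3 libraries of H1299 with the mock version of that vector, whose genotype is labelled WT. Per the labels, both groups were stable transfectants, selected in cultures 14 days past confluence with puromycin at 1 µg/ml and kept in medium with 10% serum. Whether libraries came from separate cultures or clones is not stated, and the p-values then cover only the spread among these libraries, part of which may be technical.

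A ubiquitin ligase of this kind brings a charged conjugating enzyme and a substrate together, and a chain of ubiquitin then sends the substrate to the proteasome. The coactivators choose the substrates: CDC20 acts in mitosis, when securin and cyclin B1 are destroyed, and FZR1 (also called Cdh1) takes over from mitotic exit through G1. UBE2C places the first ubiquitins and UBE2S lengthens the chain, while FBXO5 (Emi1) holds the ligase inactive in S phase and G2. Much of this control acts on proteins, by phosphorylation and by binding of inhibitors, and transcript levels do not report it.

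Promoter sequences are shown for both coactivators and for the inhibitor, because CDC20 and FBXO5 spread the most among the knockdown libraries and FZR1 is the coactivator that CDC20 is set against. Each is the 150 bases before a RefSeq transcript start on GRCh38.p14, with capitals marking CCAAT and the hexamers TTTGAA and TTTAAA on either strand. TTTGAA and TTTAAA are the letters of the cell cycle homology region known from promoters of mitotic genes, and CCAAT is the NF-Y box. The windows are chr1:43358831-43358980 on the plus strand for CDC20, chr6:152983042-152983191 on the minus strand for FBXO5 and chr19:3506161-3506310 on the plus strand for FZR1.
CDC20: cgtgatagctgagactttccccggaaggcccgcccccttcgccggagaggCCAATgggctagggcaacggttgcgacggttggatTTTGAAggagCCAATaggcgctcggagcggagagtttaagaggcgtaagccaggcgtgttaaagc
FBXO5: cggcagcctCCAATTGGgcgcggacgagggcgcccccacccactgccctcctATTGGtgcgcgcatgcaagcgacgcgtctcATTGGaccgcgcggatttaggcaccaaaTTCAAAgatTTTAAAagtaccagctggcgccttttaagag
FZR1: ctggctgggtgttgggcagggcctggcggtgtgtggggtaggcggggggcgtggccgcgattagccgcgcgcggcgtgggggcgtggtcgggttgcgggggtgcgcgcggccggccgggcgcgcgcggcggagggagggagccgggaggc

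In CDC20 the hexamer TTTGAA began 65 bases before the start, between CCAAT boxes that began 100 and 55 bases before it. FBXO5 has 2 listed starts, and the one with more matches is shown: TTTGAA began 40 bases before it on the opposite strand and TTTAAA 31 bases before it, with CCAAT at 4 positions, of which the outermost pair overlapped. The FZR1 window, from the first of 2 listed starts, held none of these letters, although TTTGAA occurred farther upstream in the full entry. RefSeq promoters, from 250 bases before to 50 bases after each start, were matched for 9 of the 10 genes, with 17 entries in all, and not for UBE2C. Both a hexamer and CCAAT, on either strand, were present in 3 of the 17 entries, those of CDC20, CDC27 and FBXO5, and in 9.27% of the 35116 promoters of the same length. TTTGAA alone was present in 15.2% of those promoters, TTTAAA in 12.2% and CCAAT in 34.6%. Such matches describe these windows and are not binding sites.

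Library totals lay between 28122665 and 30332989 counts, and CCNB1 in the hairpin libraries was at 6.48%, 9.72% and 5.25% of the mock mean in libraries 1, 2 and 3. Knockdown library 2 stood apart from the other knockdown libraries, with chi-square values, divided by their degrees of freedom, of 48.5 and 44.4 against them and of 8.94 to 18.7 for the other pairs within a group. Where leaving it out moved a call or a sign among the 10 genes, both values are given. For other genes the value without it is given only for some. Of the lung adenocarcinoma and epithelial markers, the surfactant genes SFTPA1 and SFTPA2 and the secretoglobin SCGB1A1 were at 0 in all libraries, and NKX2-1, the lung lineage factor, reached at most 0.450 CPM (counts scaled to a common library total). Of the 15 markers in that list, 11 stayed under 1 CPM in every library. KRT8 and KRT18 of the same list were high in all libraries, and higher in every knockdown than in every mock library. KRT8 was at 456.3 to 931.1 CPM in knockdown and 308.8 to 356.4 CPM in mock libraries. KRT18 was at 379.2 to 715.3 CPM in knockdown and 292.1 to 328.8 CPM in mock libraries. With all libraries DESeq2 called these 2 of the 6 markers tested, against 3.25% of all genes tested, and edgeR called 0. The mesenchymal marker VIM was at 1741, 3331 and 1878 CPM in knockdown libraries 1, 2 and 3, against 3181, 3283 and 3145 CPM in mock libraries. PTPRC, CD3E and MS4A1, which mark leukocytes, were at 0, and 13 of 16 markers of other cell types stayed under 1 CPM in every library.

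Per gene length, as the deposited FPKM take it, the mitotic coactivator and the chain-starting enzyme stood far above the ligase itself. That length merges all annotated exons of a gene and may exceed its main transcript, so levels of different genes compare only roughly. In FPKM (the count scaled by gene length and library total), CDC20 averaged 165 ± 45.4 in knockdown and 130.1 ± 14.5 in mock libraries, and UBE2C averaged 110.4 ± 15.9 in knockdown and 126 ± 2.05 in mock libraries (SD, n = 3 each). UBE2S followed at 35.8 ± 6.96 FPKM in knockdown and 38.1 ± 4.10 FPKM in mock libraries. CDC20 and UBE2C were at percentile 98.6 or higher among protein-coding genes in both groups. Their library ranges overlapped each other in each group, so their order was not resolved, whereas both lay above UBE2S in every library.

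The subunits and the other regulators were lower. ANAPC11 averaged 23.3 FPKM in knockdown and 20.8 FPKM in mock libraries, and CDC27 averaged 18.5 FPKM in knockdown and 21.7 FPKM in mock libraries. FZR1 averaged 15.9 FPKM in knockdown and 16.2 FPKM in mock libraries, and FBXO5 12.7 FPKM in knockdown and 12.9 FPKM in mock libraries. ANAPC1 averaged 10.9 FPKM in knockdown and 9.63 FPKM in mock libraries, and ANAPC2 10.1 FPKM in knockdown and 8.21 FPKM in mock libraries. ANAPC10 averaged 2.73 FPKM in knockdown and 2.58 FPKM in mock libraries. ANAPC10 was below every other gene in all 6 libraries. In the knockdown libraries, the ranges of neighbours in this order overlapped except between UBE2C and UBE2S, CDC27 and FZR1, and ANAPC2 and ANAPC10. In the mock libraries they overlapped only for CDC20 with UBE2C, CDC27 with ANAPC11, and ANAPC1 with ANAPC2.

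**Figure D1:**
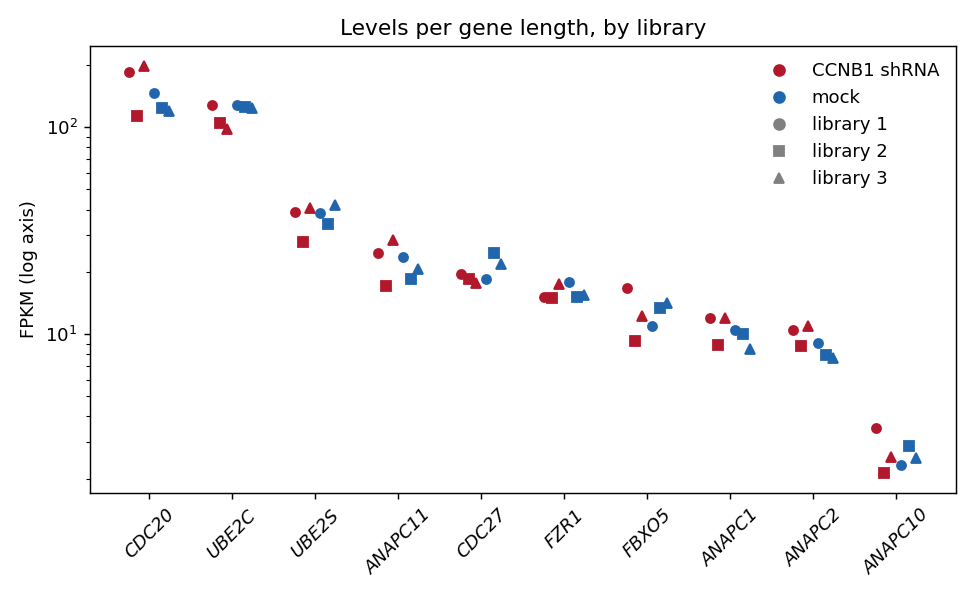
FPKM of the 10 genes on a log axis, with the CCNB1 shRNA libraries (red) left of the mock libraries (blue) and a marker shape for each library number. CDC20 and UBE2C sit near 100 FPKM or above and ANAPC10 between 2.14 and 3.50 FPKM, the lowest of the 10.

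The comparison of knockdown with mock asks whether transcripts of the ligase differ once the message of its substrate cyclin B1 is depleted. None of the 10 genes passed the threshold, an adjusted p of 0.05 over the 17349 genes tested by edgeR's quasi-likelihood test, against 0.0231% of all genes tested. At an unadjusted p under 0.05 there were 0 of 10, against 15% of all genes tested, and DESeq2 called 0, against 3.25%. Other size factors, no filter on low counts and the replicate block also called 0 of the 10, against 0.0288%, 3.12% and 0.934% of all genes tested. Leaving out a library called 0 of the 10 against 0.00558% to 0.00565% (0.00559% and 0.00561% between), except for knockdown library 2. Fold changes were small and of both signs: 5 genes had a positive and 5 a negative log2 fold change, from -0.27 to 0.29, with a median of -0.02 against 0.02 over all genes tested. Without knockdown library 2, 6 were positive and 4 negative, with a median of 0.13 against 0.02 over all genes tested, so the sign of the median rested on that library. With all libraries, all 10 of the 95% intervals included 0. The intervals ran from -0.56 at the lowest to 0.74 at the highest, so differences within those bounds were not resolved by 3 libraries per group.

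**Figure D2:**
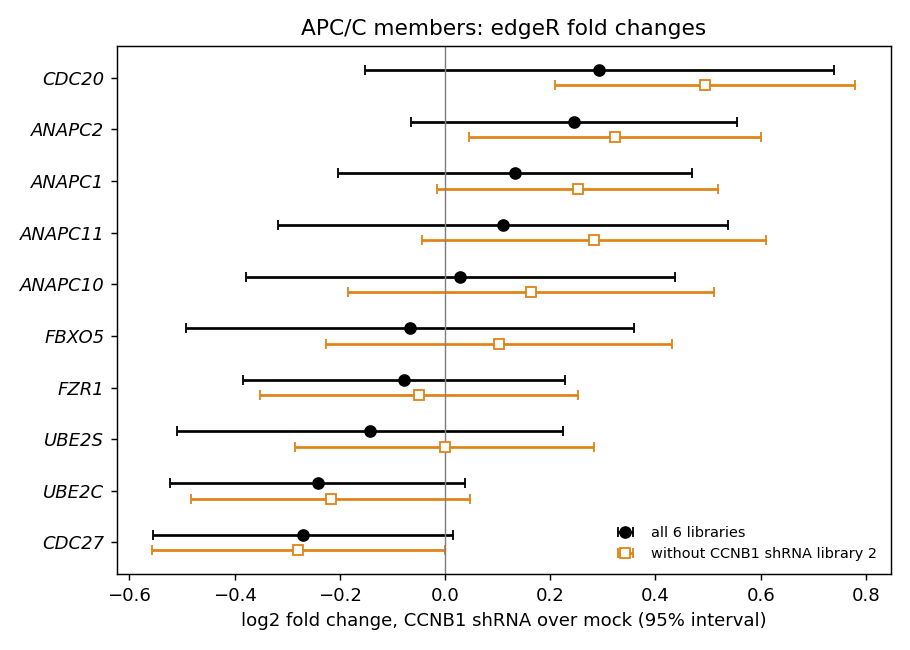
log2 fold change of each gene, CCNB1 shRNA over mock, with its 95% interval from edgeR, for all 6 libraries (black) and without CCNB1 shRNA library 2 (orange). Every black interval crosses 0. Without that library the intervals of CDC20 (0.21 to 0.78), ANAPC2 (0.045 to 0.60) and CDC27 (-0.56 to -0.00065) leave out 0, and of these only CDC20 passed the threshold.

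Among the coactivators, CDC20 (ENSG00000117399, chromosome 1 from 43358955 to 43363203, plus strand) recruits mitotic substrates and is also the target of the spindle checkpoint. It was at 359.5, 231 and 403 CPM in knockdown libraries 1, 2 and 3, against 310.6, 250.5 and 249.6 CPM in mock libraries 1, 2 and 3. Knockdown libraries 1 and 3 lay above every mock library and knockdown library 2 below every one, so the groups overlapped. The log2 fold change was 0.29 (SE 0.20, 95% interval -0.15 to 0.74) and its adjusted p was 0.516 in edgeR. In bulk RNA, more cells in a cell cycle phase and more transcript per cell cannot be told apart.

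The CDC20 value depended on knockdown library 2. Without it, CDC20 rose 1.41-fold (log2 fold change 0.49, SE 0.13). The adjusted p was 0.0325 in edgeR, 0.00666 in DESeq2 and 0.0349 in edgeR with other size factors. It was the only one of the 10 genes past the threshold there, and in those settings 13.8%, 16.4% and 13.9% of all genes tested passed. In edgeR 6.24% of all genes tested were past it and higher, so 1 of 10 is near the background. Over all alternatives tried, its adjusted p ranged from 0.00666 to 0.882. Marker genes also differed between these libraries. The summed mesenchymal markers were at 1945, 3607 and 2092 CPM in knockdown libraries 1, 2 and 3, against 3433, 3536 and 3382 CPM in mock libraries, with 6 of 8 lower in the knockdown, and most of the sum was VIM. The summed epithelial markers, nearly all KRT8 and KRT18, were at 1397, 844 and 1655 CPM in knockdown libraries, against 693, 608 and 642 CPM in mock libraries. Summed markers of other cell types were at 6.64 to 8.27 CPM in knockdown and 5.19 to 8.52 CPM in mock libraries. The part of these differences in the CDC20 value was not tested.

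FZR1 (ENSG00000105325, chromosome 19 from 3506273 to 3538330, plus strand) keeps the ligase active in G1. It was at 83.3, 86.9 and 102 CPM in knockdown libraries, against 108, 87.5 and 91.9 CPM in mock libraries. The groups overlapped, and the log2 fold change was -0.08 (SE 0.14, 95% interval -0.38 to 0.23). Its lowest knockdown library depended on the scaling: library 1 in CPM, and library 2 in FPKM, which has no TMM scaling, at 15.1, 14.97 and 17.5 FPKM in knockdown libraries 1, 2 and 3.

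Set against each other per gene length, CDC20 exceeded FZR1 in every library. The ratio of their FPKM was 12.3, 7.57 and 11.2 in knockdown libraries 1, 2 and 3, against 8.19, 8.16 and 7.73 in mock libraries. The mock ratios lay close together, and the knockdown ratios lay on both sides of them. The difference of mean log2 ratios, knockdown minus mock, was 0.34, with an SD of 0.37 among knockdown and 0.05 among mock libraries, and it was 0.55 without knockdown library 2. This is a description, with no test.

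**Figure D3:**
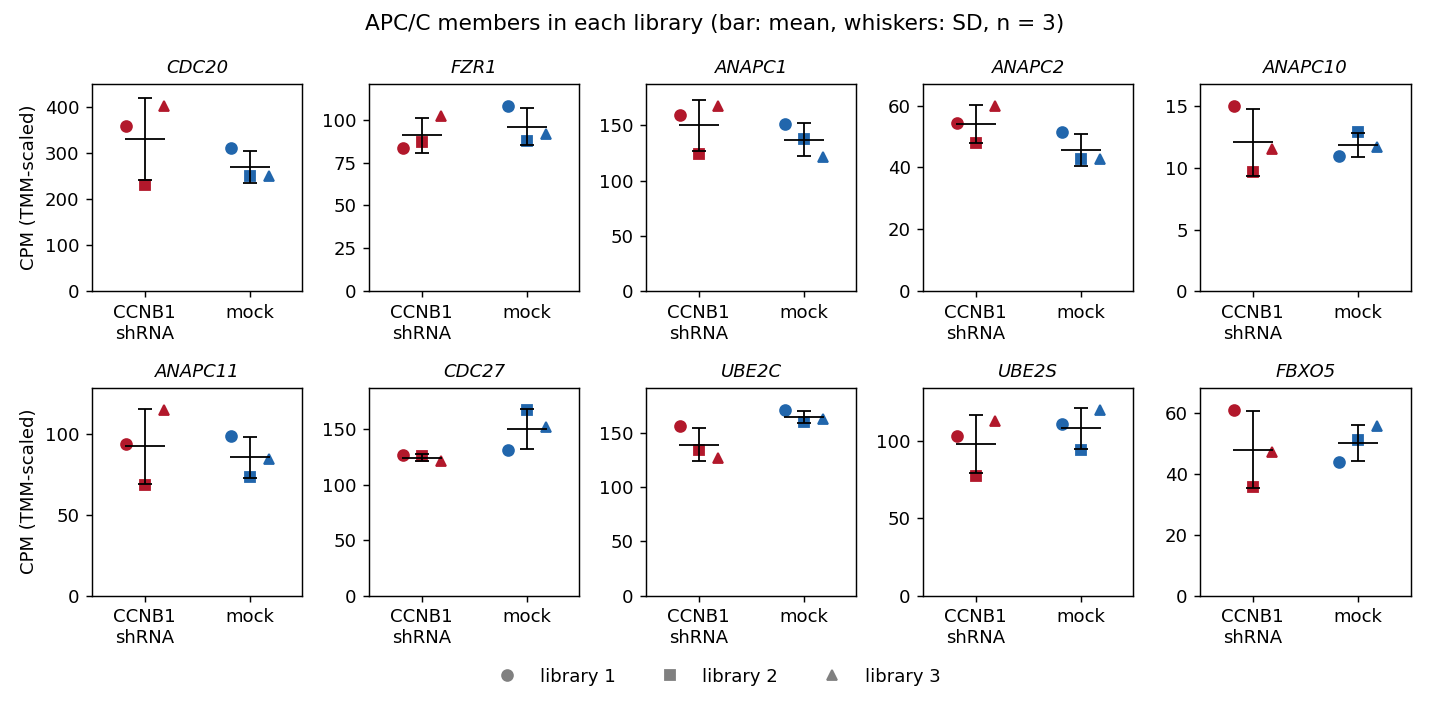
CPM of each gene in each library, on axes that start at 0, with CCNB1 shRNA libraries (red) left of mock libraries (blue). Horizontal bars are means and whiskers SD over 3 libraries. On this scale the groups overlap except for CDC27 and UBE2C, and for most genes the square of knockdown library 2 is the lowest of its group.

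The catalytic module is formed by ANAPC2, the cullin-like subunit, ANAPC11, the RING subunit that binds the conjugating enzyme, and ANAPC10, which shares substrate binding with the coactivator. ANAPC2 (ENSG00000176248, chromosome 9 from 137174784 to 137188549, minus strand) was at 54.3, 47.8 and 59.9 CPM in knockdown libraries, against 51.5, 42.6 and 42.6 CPM in mock libraries. Knockdown libraries 1 and 3 exceeded all mock libraries, and knockdown library 2 lay among them, with a log2 fold change of 0.24 (SE 0.14, 95% interval -0.07 to 0.56). ANAPC11 (ENSG00000141552, chromosome 17 from 81890790 to 81900991, plus strand) was at 93.8, 68.5 and 115 CPM in knockdown libraries, against 98.7, 73.4 and 84.5 CPM in mock libraries, with overlapping groups. Its log2 fold change, 0.11 (SE 0.19), was -0.08 without knockdown library 3.

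ANAPC10 (ENSG00000164162, chromosome 4 from 144831908 to 145098541, minus strand) was at 15.04, 9.68 and 11.6 CPM in knockdown libraries, against 10.98, 12.9 and 11.7 CPM in mock libraries. The knockdown values enclosed all of the mock values, with a log2 fold change of 0.03 (SE 0.18). It rests on the fewest reads of the 10, with 274 to 480 counts in knockdown and 312 to 366 in mock libraries. Of its exon bases, 10.4% overlap ABCE1 on the opposite strand and 22.6% overlap AC098588.1 on the same strand. ABCE1 held 1484 to 3225 counts in knockdown and 1756 to 2203 counts in mock libraries, and AC098588.1 was not among the counted genes. The strand setting of the counting is not given in the sources used here. Reads of AC098588.1 on the shared bases could not be told from those of ANAPC10 by strand. The ANAPC10 counts are therefore uncertain.

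ANAPC1, the largest subunit and the platform of the complex, and CDC27, a tetratricopeptide subunit that docks the coactivator, differed in sign. ANAPC1 (ENSG00000153107, chromosome 2 from 111611639 to 111884690, minus strand) was at 159, 124 and 168 CPM in knockdown libraries, against 152, 138 and 121 CPM in mock libraries, a log2 fold change of 0.13 (SE 0.15) and of 0.25 without knockdown library 2. Its groups overlapped, with knockdown libraries 1 and 3 above all mock libraries.

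CDC27 (ENSG00000004897, chromosome 17 from 47117703 to 47189422, minus strand) was at 127, 126 and 121 CPM in knockdown libraries, against 131, 167 and 152 CPM in mock libraries. In CPM every knockdown library lay below every mock library, and the 3 knockdown values lay closer together than those of any other gene of the 10. The log2 fold change was -0.27 (SE 0.13, 95% interval -0.56 to 0.02) with an adjusted p of 0.356 in edgeR, the lowest of the 10. Groups without overlap, 2 of the 10 genes and both lower in the knockdown, compare with 19.7% of all genes tested in either direction and 8.84% lower. In FPKM both overlapped: CDC27 was at 19.5 FPKM in knockdown library 1 and 18.5 FPKM in mock library 1, and UBE2C at 128.5 FPKM in knockdown library 1 and 128.2 FPKM in mock library 1.

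The other gene without overlap in CPM was UBE2C (ENSG00000175063, chromosome 20 from 45812576 to 45816957, plus strand). It was at 157, 134 and 127 CPM in knockdown libraries, against 171, 160.4 and 163 CPM in mock libraries. The gap between the groups was narrow, and the log2 fold change was -0.24 (SE 0.13, 95% interval -0.52 to 0.04) with an adjusted p of 0.398 in edgeR. UBE2C and CDC27 were negative in every alternative tried, from -0.36 to -0.18 and from -0.36 to -0.19 on the log2 scale, and passed the threshold in none.

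UBE2S (ENSG00000108106, chromosome 19 from 55399745 to 55407777, minus strand), the chain-extending enzyme, was at 104, 77.5 and 113 CPM in knockdown libraries, against 111, 94.0 and 120.1 CPM in mock libraries. Knockdown library 2 was the lowest of the 6 libraries and the others overlapped, with a log2 fold change of -0.14 (SE 0.16). Without that library it was -0.00086, and the negative value thus rested on it. The FPKM ratio of UBE2C to UBE2S was 3.29, 3.75 and 2.43 in knockdown libraries, against 3.35, 3.70 and 2.95 in mock libraries, a difference of mean log2 ratios of -0.09 that was smaller than the SD of either group (0.32 among knockdown and 0.17 among mock libraries).

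FBXO5 (ENSG00000112029, chromosome 6 from 152970519 to 152983579, minus strand), the inhibitor, was at 60.9, 35.7 and 47.0 CPM in knockdown libraries, against 43.8, 51.1 and 55.6 CPM in mock libraries. The knockdown libraries held both the highest and the lowest value of the 6. The log2 fold change was -0.07 (SE 0.19, 95% interval -0.49 to 0.36), and 0.10 without knockdown library 2, so it had no stable sign. The FPKM ratio of FBXO5 to FZR1, the inhibitor against the coactivator active in G1, was 1.11, 0.622 and 0.697 in knockdown libraries, against 0.614, 0.884 and 0.915 in mock libraries. The means were 0.808 ± 0.261 in knockdown and 0.804 ± 0.166 in mock libraries (SD, n = 3 each).

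The knockdown libraries differed among themselves more than the mock libraries did for 8 of the 10 genes, against 65.1% of all genes tested. Library 2 was the lowest knockdown library for 7 of the 10, against 36.5% of all genes tested, and the highest for 0 of the 10, against 42%. CDC20, FBXO5 and ANAPC11 spread the most, over 0.80, 0.77 and 0.74 on the log2 scale among knockdown libraries, against 0.32, 0.34 and 0.43 among mock libraries. CDC27 spread over 0.06 among knockdown and 0.35 among mock libraries. Knockdown libraries 1 and 3 both exceeded all mock libraries for CDC20, ANAPC1 and ANAPC2, 3 of the 10 against 24.5% of all genes tested, which is near the background.

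**Figure D4:**
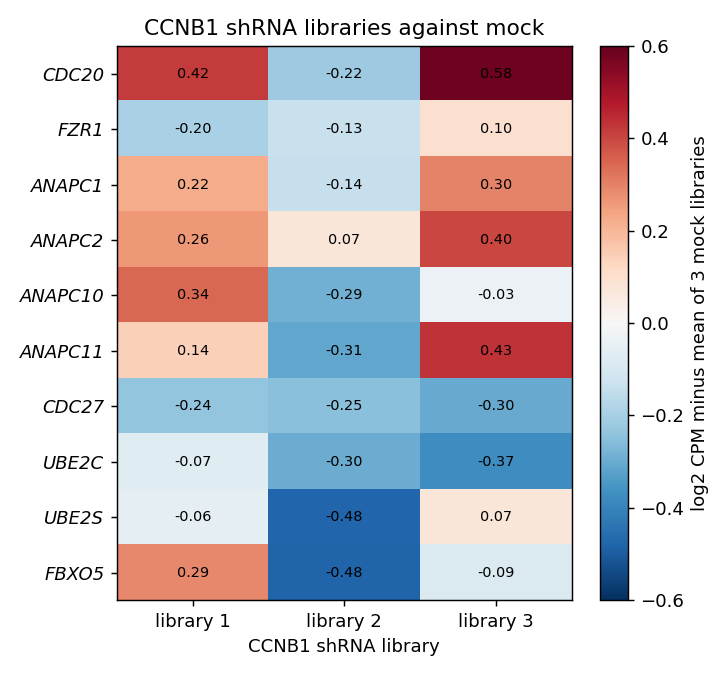
log2 CPM of each gene in each CCNB1 shRNA library minus the mean of the 3 mock libraries, with the value in each cell. Library 2 is negative for all genes but ANAPC2, CDC20 ranges from -0.22 to 0.58, and CDC27 is between -0.30 and -0.24 in all libraries.

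Genes with the most similar pattern were sought among 10785 tested genes with a mean of at least 5 CPM, by the root mean square difference of centred log2 CPM over the 6 libraries. The smallest differences were picked from all candidates, so lying far below the median follows from the selection. For CDC20 these were PSMA5, a proteasome core subunit, at 0.025, RTCB, the RNA ligase of tRNA splicing, at 0.028, and RABEPK at 0.030, where the median candidate was at 0.343. PSMA5 was at 170, 106 and 180 CPM in knockdown libraries, against 141, 116 and 114 CPM in mock libraries. For FZR1 they were the kinase gene AKT2 at 0.011 and the transporter genes SLC35C1 at 0.015 and SLC12A9 at 0.024, with a median of 0.229.

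For UBE2C the nearest were DLX1, a homeobox gene, at 0.043, CIB2 at 0.046 and H2AFB1, a histone variant gene with near-identical copies and therefore uncertain counts, at 0.047, with a median of 0.238. For FBXO5 they were the RNA helicase gene DDX21 at 0.029, the proteasome core subunit gene PSMA4 at 0.034 and the helicase gene DDX52 at 0.041, with a median of 0.306. DDX21 was at 282, 169 and 228 CPM in knockdown libraries, against 201, 244 and 258 CPM in mock libraries. 

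Of the other 9 subunits of the ligase, 5 had a positive and 4 a negative log2 fold change, with a median of 0.04, and of 0.21 without knockdown library 2. In edgeR and DESeq2 0 passed, and 1 of the 9 had an unadjusted p under 0.05, against 15% of all genes tested. That gene was ANAPC4, part of the platform, at 70.2, 57.2 and 66.6 CPM in knockdown libraries, against 44.6, 53.2 and 55.4 CPM in mock libraries. Its groups did not overlap, as for 19.7% of all genes tested, and the log2 fold change was 0.34 (SE 0.14). Its adjusted p was 0.288 in edgeR, and 0.0489 without knockdown library 2, where 1 of the 9 passed against 13.8% of all genes tested. ANAPC13, a small stabilizing subunit, averaged 120 ± 16.8 CPM in knockdown and 99.4 ± 6.95 CPM in mock libraries, and ANAPC15, which promotes release of checkpoint proteins from the complex, 14.0 ± 0.942 CPM in knockdown and 16.7 ± 2.34 CPM in mock libraries (SD, n = 3 each).

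Genes of the spindle checkpoint, which restrains CDC20 until chromosomes are attached, and of other inhibitors included 6 positive and 6 negative values of 12. Their median log2 fold change was 0.00. None passed in edgeR or DESeq2, and 0 had an unadjusted p under 0.05, against 15% of all genes tested. TRIP13, the ATPase that disassembles the checkpoint complex, was at 89.3, 37.6 and 87.4 CPM in knockdown libraries, against 59.0, 52.2 and 47.8 CPM in mock libraries. ZWINT, a kinetochore gene, was at 106, 48.1 and 102 CPM in knockdown libraries, against 69.1, 66.1 and 69.1 CPM in mock libraries. Both had knockdown libraries 1 and 3 above and library 2 below all mock libraries, as CDC20 had, and both rose without library 2, with adjusted p of 0.00447 and 0.00504 in edgeR. These are 2 of 12, both higher. In that setting 6.24% of all genes tested passed and were higher, and 13.8% passed in either direction. MAD2L1BP, which helps TRIP13 act on its substrate, averaged 37.8 ± 6.02 CPM in knockdown and 31.7 ± 3.75 CPM in mock libraries (SD, n = 3 each).

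Of 21 genes of mitotic substrates, 1 fell in edgeR's test, against 0.0231% of all genes tested: CCNB1 itself, the target of the hairpin. It was at 19.9, 29.9 and 16.1 CPM in knockdown libraries, against 323, 305 and 294 CPM in mock libraries, which is -3.81 on the log2 scale (SE 0.22, adjusted p 0.000215 in edgeR). The median of the 21 was -0.09, and 0.0032 without knockdown library 2. An unadjusted p under 0.05 in edgeR was found for CCNB1 and ANLN, 2 of 21 against 15% of all genes tested. ANLN, the contractile ring protein anillin, averaged 228 ± 40.8 CPM in knockdown and 292 ± 27.1 CPM in mock libraries, with an adjusted p of 0.316. BIRC5, the chromosomal passenger survivin, was at 155, 84.7 and 135 CPM in knockdown libraries, against 89.3, 99.2 and 94.97 CPM in mock libraries, and rose without knockdown library 2 (adjusted p of 0.00749 in edgeR), where 2 of 21 passed against 13.8% of all genes tested.

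Substrates of G1 and S phase parted most between the knockdown libraries. The median log2 difference of their 16 genes from the mock mean was 0.41, -0.61 and 0.19 in knockdown libraries 1, 2 and 3, against 0.18, -0.27 and 0.09 for the 10 genes of the ligase and 0.02, 0.02 and 0.02 over all genes tested. With all libraries, 10 were positive and 6 negative, with 0 past the threshold in edgeR or DESeq2. At an unadjusted p under 0.05 there was 1 of 16, against 15% of all genes tested. That gene was CDC25A, the phosphatase that activates S phase kinases, at 49.0, 13.2 and 44.5 CPM in knockdown libraries, against 17.4, 15.1 and 14.7 CPM in mock libraries. Without knockdown library 2, CDC25A, CDC6, TK1, UHRF1 and E2F1 rose, 5 of 16 against 6.24% of all genes tested. With all libraries, E2F1 averaged 31.6 ± 15.9 CPM in knockdown and 22.4 ± 2.38 CPM in mock libraries, and USP1, a deubiquitinase of DNA repair, 79.5 ± 8.35 CPM in knockdown and 92.5 ± 17.4 CPM in mock libraries (SD, n = 3 each).

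**Figure D5:**
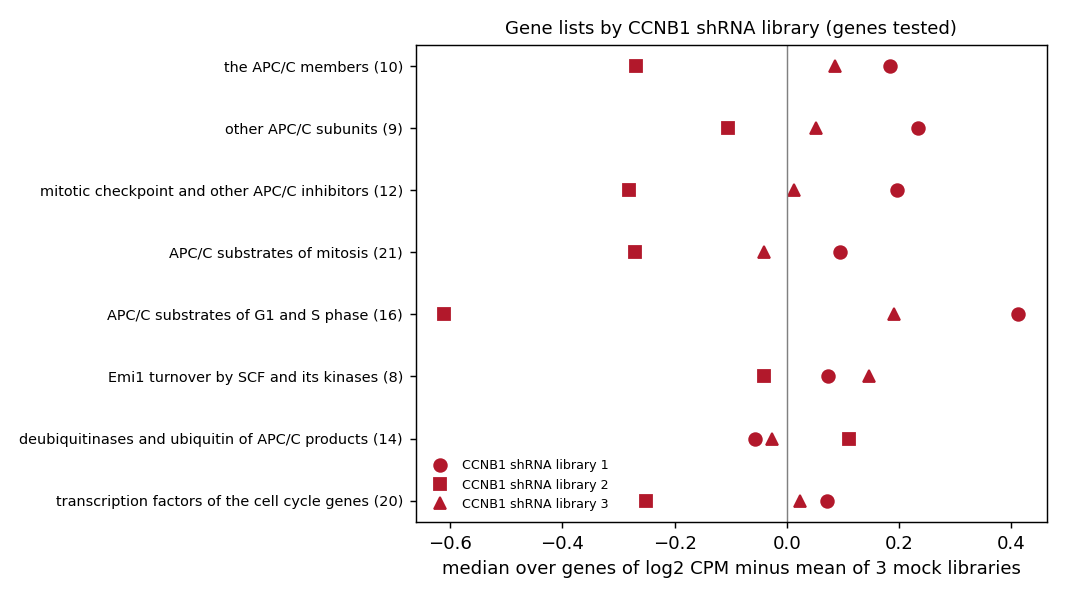
Median over the tested genes of each list of log2 CPM minus the mean of the 3 mock libraries, with a marker for each CCNB1 shRNA library. Library 2 lies at -0.27 for the APC/C genes and at -0.61 for the G1 and S phase substrates, left of libraries 1 and 3, and, of the lists plotted, is the highest only for the deubiquitinase and ubiquitin list, at 0.11.

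Genes that feed into the ligase were measured as well. Of 8 genes for turnover of Emi1, 5 were positive and 3 negative, with 0 past the threshold in edgeR or DESeq2. At an unadjusted p under 0.05 there were 0 of 8, against 15% of all genes tested. The F-box pair that recognizes Emi1, BTRC and FBXW11, averaged 40.5 ± 2.47 and 120.1 ± 3.52 CPM in knockdown libraries, against 37.3 ± 2.27 and 129.6 ± 2.204 CPM in mock libraries (SD, n = 3 each). RBX1, the RING subunit of cullin ligases, was at 65.9 ± 8.87 CPM in knockdown and 55.4 ± 5.58 CPM in mock libraries.

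Of 14 deubiquitinase, conjugating enzyme and ubiquitin genes, 9 were positive and 5 negative, with 0 past the threshold in edgeR or DESeq2. At an unadjusted p under 0.05 there were 3 of 14, against 15% of all genes tested. USP44, a deubiquitinase known to act on CDC20, was at 16.5, 11.3 and 15.8 CPM in knockdown libraries, against 8.87, 8.86 and 10.1 CPM in mock libraries. Its groups did not overlap, as for 19.7% of all genes tested, and its difference was 0.64 on the log2 scale (SE 0.18). The adjusted p was 0.156 in edgeR, and 0.00564 without knockdown library 2, where 1 of 14 passed against 13.8% of all genes tested. UBA1, the main ubiquitin-activating enzyme, was at 322, 391 and 405 CPM in knockdown libraries, against 634, 485 and 448 CPM in mock libraries, which is -0.49 on the log2 scale (SE 0.16, adjusted p 0.212 in edgeR). UBE2D1, another conjugating enzyme used by the ligase, was at 18.8 ± 1.73 CPM in knockdown and 23.5 ± 2.75 CPM in mock libraries (SD, n = 3 each), also without overlap.

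Among 20 transcription factor genes of the cell cycle, 8 were positive and 12 negative, with 0 past the threshold in edgeR. At an unadjusted p under 0.05 there were 2 of 20, against 15% of all genes tested. E2F3, an activating E2F, was at 41.1, 42.1 and 38.4 CPM in knockdown libraries, against 52.8, 62.7 and 60.3 CPM in mock libraries. All knockdown libraries, library 2 included, lay below all mock libraries, as for 8.84% of all genes tested, with a difference of -0.53 on the log2 scale (SE 0.12). The adjusted p was 0.118 in edgeR, and E2F3 was the 1 gene of the 20 that DESeq2 called, against 3.25% of all genes tested. Without knockdown library 2, 6 of 20 passed in edgeR, against 13.8% of all genes tested: E2F1, E2F2, MYBL2 and TFDP1 rose, and E2F3 and RBL2 fell, with adjusted p of 0.0152 for E2F3 and 0.0302 for RBL2. RBBP4, a chromatin subunit of the DREAM complex, which binds the hexamers named above, averaged 162 ± 12.6 CPM in knockdown and 133 ± 8.88 CPM in mock libraries, and RBL2, its pocket protein p130, with all libraries 62.7 ± 13.1 CPM in knockdown and 74.4 ± 4.70 CPM in mock libraries (SD, n = 3 each).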

How the data were processed

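Raw counts per gene and FPKM values were deposited by the authors, with 1 column per library, and 0 columns belonged to other samples. The submitters' processing notes name HISAT2 2.1.0, featureCounts 2.0.3, bcl2fastq and DESeq2 with the build GRCh38.p13. The annotation release and strand setting are not given in the sources used here. The deposited FPKM gave, for all 10 genes, the exon length of GENCODE 29 on GRCh38 to within 0.5 bases, so positions are from that release. The test on counts was that of edgeR 4.0.16, under R 4.3.3 (filterByExpr, which kept 17349 of 58336 genes, TMM scaling, quasi-likelihood F test, Benjamini-Hochberg adjustment over all genes tested, threshold 0.05). CPM are TMM-scaled, log2 CPM used a prior count of 2, and 95% intervals use the SE that the F statistic implies for the log2 fold change. DESeq2 1.42.0 was an alternative. The edgeR steps were also run on simulated counts, with dispersions taken from these data. Of genes changed by 1 in either direction on the log2 scale 76% were called, and of unchanged genes 0.0832%. Smaller changes were not simulated, and the changed genes were taken from those with higher mean counts. No simulated library stood apart as knockdown library 2 does, so these shares may not hold for the real comparison.

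Groups and library numbers came from the sample titles. The 10 genes and all lists were chosen with earlier results of these data known. The rule for naming took the 10 genes, CCNB1, the 3 genes of each of 7 lists with the smallest p, and the 3 most similar genes for CDC20, FZR1, UBE2C and FBXO5. Genes past the threshold only without knockdown library 2, the per-library markers and PSMA5 and DDX21 as examples were chosen after their values were seen. Rows named by symbol as pseudogenes of a member held at most 1.69% of that member's count, for UBE2S. How reads matching several places were counted is not given in the sources used here. Python 3.11.15, pandas 2.3.3 and matplotlib 3.10.9 made the tables and plots.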

Additional observations from a re-analysis of the deposited data

How the results depend on the processing

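Over 120 alternative values of the 10 log2 fold changes, 108 kept their sign and side of the threshold, 3 passed it and 9 changed sign. The 3 are CDC20 without knockdown library 2. Sign changes came from leaving out a library for FZR1 (range -0.17 to 0.013), ANAPC10 (-0.18 to 0.16), ANAPC11 (-0.080 to 0.28) and FBXO5 (-0.30 to 0.10), from using no filter for ANAPC10 (-0.011), and, chosen after seeing the data, from DESeq2 or other size factors without knockdown library 2 for FBXO5 (0.091 in both). The number of the 10 genes past the threshold was 0 to 1 when a library was left out, 0 with DESeq2, other size factors, no filter or the replicate block, and 1 under each added alternative. Over all genes it was 4, then 564 with DESeq2, 1077 with no filter, 1 to 2453 without a library, and 2917 and 2470 under the added alternatives.

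By list, leaving out a library gave 0 to 1 of the other subunits, 0 to 2 of the checkpoint genes, 1 to 2 of the mitotic substrates, 0 to 5 of the G1 and S phase substrates, 0 to 1 of the deubiquitinase and ubiquitin genes and 0 to 6 of the transcription factors. Each highest count was without knockdown library 2, where 13.8% of all genes tested passed in either direction and 6.24% passed and were higher. Against the first share, 1 of 9, 2 of 12, 2 of 21 and 1 of 14 are near or below the background. The 2 of 12 were both higher. With no filter the G1 and S phase, deubiquitinase and transcription factor lists had 1 (CDC25A), 2 (USP44 and UBA1) and 1 (E2F3), against 3.12% of all genes tested. DESeq2 called 1 transcription factor, against 3.25%. The cause was not tested. The log2 ratio differences moved by less than the SD among knockdown libraries, which library 2 widens, when a library was left out. CPM in place of FPKM cannot move them, because gene length and library scaling cancel in these differences. CDC20 to FZR1 and UBE2C to UBE2S moved by more than the SD among mock libraries. Their ranges were 0.20 to 0.55 for CDC20 to FZR1, -0.23 to 0.08 for UBE2C to UBE2S and -0.27 to 0.15 for FBXO5 to FZR1.

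Whether the library numbers pair the samples was not settled. Deviations of same-numbered libraries correlated at -0.19, 0.11 and 0.07 over genes. Libraries did not all correlate best with their own number, and the highest value, 0.30, joined knockdown library 3 and mock library 1. With 3 libraries per group, and a knockdown library that stood apart, such correlations cannot exclude pairing. With the replicate number as a block, 162 genes passed over the whole table, against 4 without the block, and 0 of the 10. At 3 libraries per group, intervals of the 10 genes reached 0.74 on the log2 scale, and differences within them were not resolved.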
